A study of Mus musculus with 8 samples.

Results

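Soluble guanylate cyclase and the genes around cGMP were followed as a set of 10 genes among the 53801 genes of the count table. The set was the cyclase subunits Gucy1b1, Gucy1a1 and Gucy1a2, the nitric oxide synthase Nos2, the natriuretic peptide receptors Npr2 and Npr3, the cGMP-dependent protein kinases Prkg1 and Prkg2, and the phosphodiesterases Pde5a and Pde3a. All 10 were found in the table by their symbols. The set had been chosen from measured values of the same contrast, GFP+ against GFP- cells, in the same libraries. Its differences are therefore given as a description, and the counts of calls printed for it below are no evidence about it.

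Soluble guanylate cyclase is the intracellular receptor of nitric oxide. It is a dimer of an alpha and a beta subunit that holds a haem group and makes cGMP from GTP when nitric oxide binds. A separate route to cGMP runs through receptors in the plasma membrane that bind natriuretic peptides and carry a cyclase domain of their own. cGMP acts on protein kinases and ion channels and is degraded by phosphodiesterases, and in blood vessels this pathway is best known for relaxing smooth muscle and pericytes.

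The cells were PDGFRα+ Pdpn+ stromal cells, negative for CD45 and CD31, sorted from MO5 tumors, a mouse melanoma grown under the skin from B16 cells that express ovalbumin. The hosts were young adult ADAM12-GFP mice on a C57Bl/6 background, males and females, and every cell of both groups came from such a tumor-bearing mouse. GFP+ cells carried the reporter signal and GFP- cells from such tumors did not, and each group had 4 libraries, prepared from tumors early in their growth. GFP is read from a bacterial artificial chromosome transgene driven by the Adam12 promoter, so the sort follows activity of the transgene and not ADAM12 protein. The labels do not say which animals or pools of animals gave each library, and p-values measure only the spread between these libraries, which may in part be technical.

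Total counts ran from 883144 to 17535099 in GFP- libraries and from 8776925 to 31666734 in GFP+ libraries. GFP- replicate 3 was the shallowest, and 1 read there was worth 10.99 normalised counts, a normalised count being reads over the size factor of their library. Adam12 itself averaged 1362 ± 357 normalised counts in GFP- against 2302 ± 484 in GFP+ libraries (SD, n = 4), with no overlap between groups (DESeq2 adjusted p = 0.0266, edgeR adjusted p = 0.064). The defining markers of the sorted cell type were present in both groups, and 8 of 10 fibroblast markers were higher in GFP+ libraries, with a median log2 fold change of 0.91. Their summed level ran from 8566 to 16120 TPM (transcripts per 1000000, counted per length) in GFP- and from 16600 to 21390 TPM in GFP+ libraries. All 12 melanocyte markers were lower in GFP+ libraries, with sums of 2097 to 5813 TPM against 224.1 to 732.2 TPM. Of 9 Schwann cell markers 7 had an adjusted p and 4 were lower, with sums of 100.2 to 250.5 TPM against 34.95 to 49.21 TPM. Sox10, the most abundant of them in GFP- libraries (mean 97.3 TPM), is also on the melanocyte list.

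The marker sums of the vessel cells in which this pathway is best known were far below the fibroblast sum. Pericyte markers summed to between 128.2 and 192.5 TPM in GFP- and between 145.7 and 180.3 TPM in GFP+ libraries, and most of that sum was Pdgfrb, which fibroblasts also express (means 88.6 and 102.3 TPM). Among the pericyte genes described here, Abcc9 was called higher (means 8.04 and 14.3 TPM) and Mcam was called lower (means 15.75 and 4.51 TPM). Higd1b had no read in any library. Among the other defining pericyte markers, Rgs5 had means of 0.493 and 1.66 TPM and Cspg4 of 1.24 and 1.02 TPM. Smooth muscle markers summed to 55.81 to 103.6 TPM in GFP- and 51.67 to 66.62 TPM in GFP+ libraries. Of these 10 markers 7 had an adjusted p and 1 was called higher (Synpo2). Endothelial markers summed to 55.09 to 138.5 TPM and 68.9 to 107.4 TPM, the largest part being Tek (means 67.2 and 57.8 TPM). Of these 10 markers 7 had an adjusted p and 1 was called lower (Vwf). The macrophage list, which matters for Nos2, summed to 134.8 to 716.1 TPM and 101.6 to 543.2 TPM, and its spread within each group was wide. Platelets are rich in soluble guanylate cyclase. Of 8 platelet markers 3 had an adjusted p and 1 was called higher (Itga2b), while Gp9 had no read and Ppbp had none in GFP+ libraries. Their sums were 1.415 to 53.31 TPM and 3.051 to 22.05 TPM. Leukocyte markers summed to 38.47 to 298.4 TPM and 34.64 to 228.1 TPM and erythroid markers to 23.22 to 55.89 TPM and 16.65 to 59.91 TPM. On the macrophage, leukocyte and erythroid lists 9 of 10, 9 of 10 and 5 of 6 genes had an adjusted p. Neither DESeq2 nor edgeR called a gene on these lists, and 0 had an unadjusted DESeq2 p under 0.05. Of the genes gated in the sort, Pdgfra and Pdpn were higher in GFP+ libraries by 1.32 and 0.70 on the log2 scale, and Ptprc (CD45) and Pecam1 (CD31) had log2 fold changes of -0.07 and 0.42 that were not called (DESeq2 adjusted p = 0.982 and 0.731). The part of any of these cell types in the values below was not tested.

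**Figure D1:**
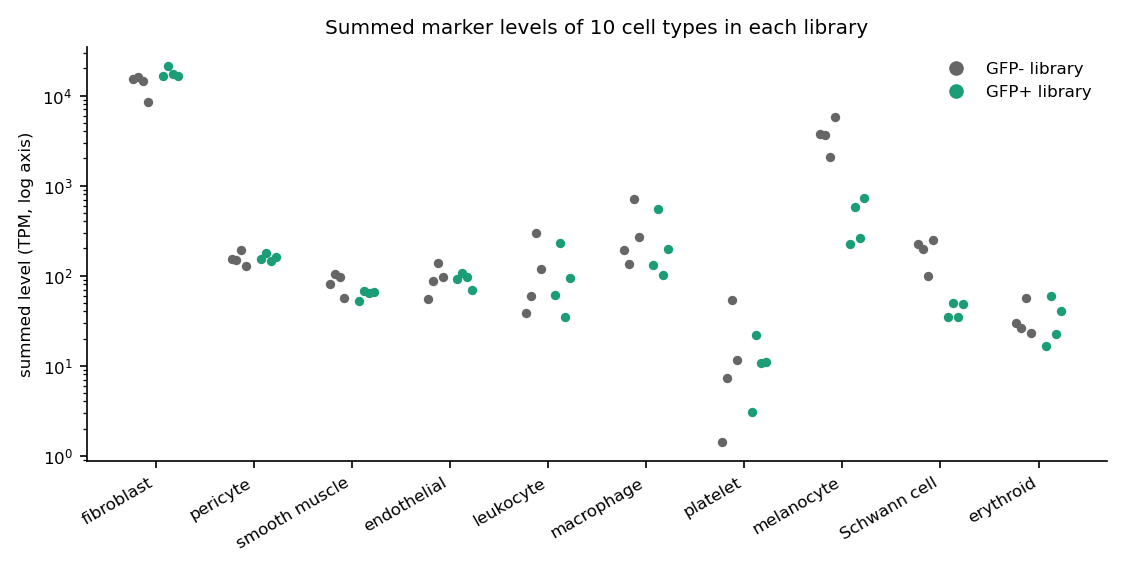
Summed levels (TPM, log axis) of the marker lists of 10 cell types, 1 point per library, GFP- in grey and GFP+ in green. Melanocyte sums were 2097 to 5813 TPM in GFP- and 224.1 to 732.2 TPM in GFP+ libraries, while pericyte sums overlapped between groups.

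In the whole comparison DESeq2 gave an adjusted p to 15283 genes and called 1439 at an adjusted p under 0.05. Of these, 712 (4.66% of genes tested) were higher and 727 (4.76%) were lower in GFP+ libraries. Counted without a model, 6.37% of the genes tested had every GFP+ library above every GFP- library and 5.95% had the opposite. The edgeR quasi-likelihood test called 5.11% of its genes in either direction. When libraries were scaled to 8 fibroblast markers that the sort did not use, the median of all genes moved by -0.94 on the log2 scale, and higher genes made up 1.19% of 7322 calls against 49.5% of 1439. On that scale the log2 fold changes of Adam12 and Pdpn were -0.11 and -0.23 and that of Pdgfra was 0.40. Against this background, 5 of the 10 genes were called higher (Gucy1b1, Gucy1a1, Npr2, Npr3 and Pde3a) and the other 5 were not called, with 2 of 10 called by edgeR (Gucy1b1 and Gucy1a1). Npr2 was not called with limma, with no independent filtering, or when GFP- replicate 2 or 4 or GFP+ replicate 1 or 3 was left out. For Pde3a the same held when GFP- replicate 1 or 4 or GFP+ replicate 3 or 4 was left out. No overlap between groups, with GFP+ above GFP-, was seen for 4 of them (Gucy1b1, Gucy1a1, Npr3 and Pde3a). On the fibroblast scale 5 were also called, but another set, with Gucy1b1, Gucy1a1 and Npr3 higher and Prkg1 and Pde5a lower. Nothing is read from these counts, since the genes were chosen on this contrast. Their median log2 fold change was 0.87, against -0.01 over all genes tested, and fold changes ran from -1.27 to 3.28.

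**Figure D2:**
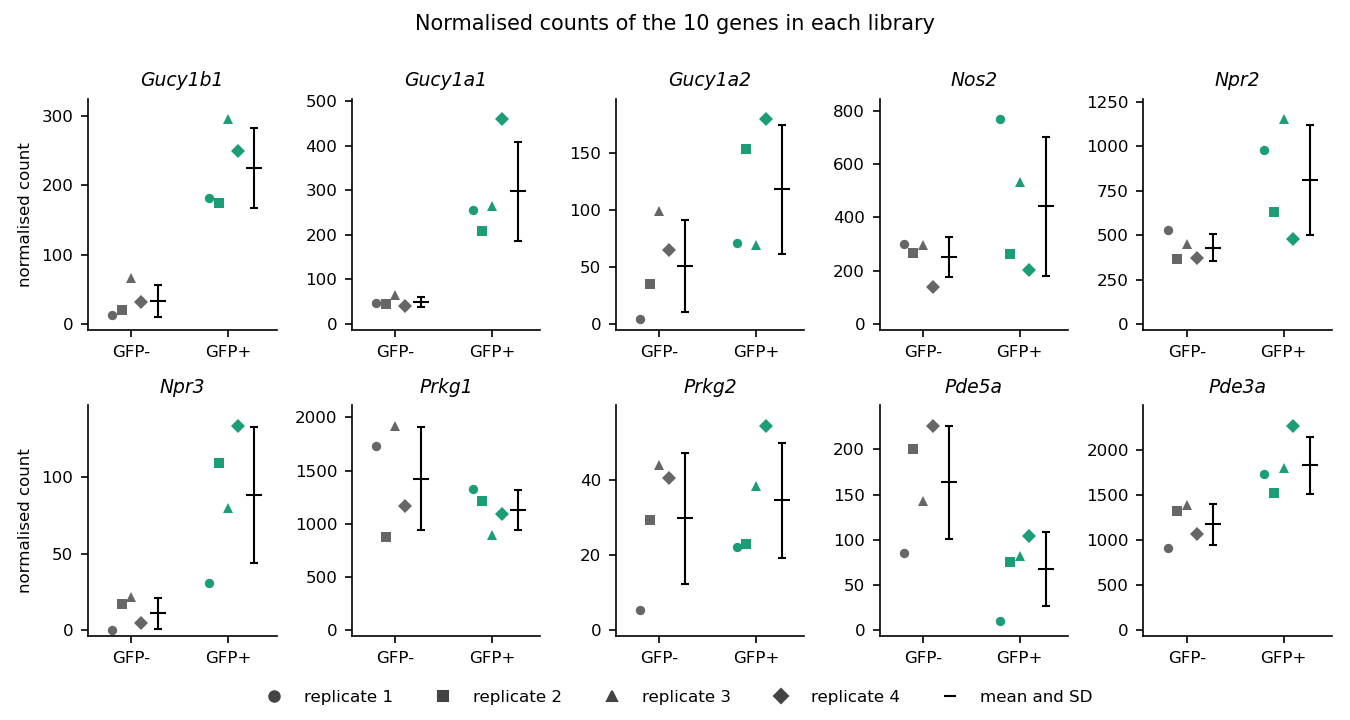
Normalised counts of each of the 10 genes, 1 marker per library shaped by replicate number, with the mean and SD (n = 4) beside each group. Gucy1b1, Gucy1a1, Npr3 and Pde3a showed no overlap between groups, and the other 6 genes overlapped.

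Gucy1b1 and Gucy1a1 encode the beta1 and alpha1 subunits, which form the common dimer of soluble guanylate cyclase. They lie next to each other on the minus strand of chromosome 3 (GRCm38), Gucy1b1 (ENSMUSG00000028005) at 82032006 to 82074689 and Gucy1a1 (ENSMUSG00000033910) at 82092427 to 82145789, with 17737 bases between them. The promoters of the cyclase subunits, which together make up the enzyme, are shown here from RefSeq on GRCm38.p6. Each window runs from 250 bases before to 50 bases after an annotated start, reads 5′ to 3′ on the gene's strand, and was found for 7 of the 10 genes. Capitals mark matches on either strand to GGGCGG, the GC box, and to CCAAT, the CCAAT box, which do not overlap one another here. The windows are chr3:82074662-82074961 (minus strand) for Gucy1b1, chr3:82145601-82145900 (minus strand) for the first of 2 annotated starts of Gucy1a1, and chr9:3532099-3532398 (plus strand) for Gucy1a2.
Gucy1b1: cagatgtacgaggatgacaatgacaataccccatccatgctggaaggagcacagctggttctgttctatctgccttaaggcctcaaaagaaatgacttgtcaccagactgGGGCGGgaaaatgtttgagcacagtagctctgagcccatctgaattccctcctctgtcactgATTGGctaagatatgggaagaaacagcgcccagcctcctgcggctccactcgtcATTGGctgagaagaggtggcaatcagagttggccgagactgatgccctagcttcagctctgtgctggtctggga
Gucy1a1: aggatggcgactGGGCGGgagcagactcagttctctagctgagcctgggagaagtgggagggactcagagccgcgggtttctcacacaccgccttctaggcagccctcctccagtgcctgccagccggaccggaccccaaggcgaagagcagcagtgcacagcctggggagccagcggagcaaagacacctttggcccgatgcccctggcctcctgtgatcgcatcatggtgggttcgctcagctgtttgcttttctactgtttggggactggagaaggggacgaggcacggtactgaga
Gucy1a2: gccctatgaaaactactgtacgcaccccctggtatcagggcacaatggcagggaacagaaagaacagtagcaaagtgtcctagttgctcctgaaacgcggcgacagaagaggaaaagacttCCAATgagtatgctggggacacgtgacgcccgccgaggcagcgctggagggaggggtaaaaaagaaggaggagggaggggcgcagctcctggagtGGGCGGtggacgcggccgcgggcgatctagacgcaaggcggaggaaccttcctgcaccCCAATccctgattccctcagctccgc

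The Gucy1b1 window held 1 GC box, 140 bases before the start, and 2 CCAAT boxes, 78 and 24 bases before it, both on the opposite strand. In the Gucy1a1 window the GC box lay 238 bases before the start and there was no CCAAT box, and the window at the second Gucy1a1 start, chr3:82145024-82145323, held neither. The Gucy1a2 window had a GC box 34 bases before the start and CCAAT boxes 129 bases before and 24 bases after it. Of 32851 promoter windows of this length, 35.7% held the GC box and 37.4% the CCAAT box. Also searched on both strands were TGANTCA (AP-1, in 7.81% of all windows), TGACGTCA (CRE, 1.79%), TATAAA (13.6%), TTCNNNGAA (STAT, 8.30%), the CArG box (1.63%) and GGAATG (MCAT, 14.7%), and none of the 9 windows of the 7 genes held any of them. GC content was 52.3% for Gucy1b1, 62.3% at both Gucy1a1 starts, 60.0% for Gucy1a2 and 39.0% for Npr3, whose promoter had a GC content that 8.38% of all windows fell below.

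Gucy1b1 had 13.6, 20.1, 65.9 and 31.5 normalised counts in GFP- replicates 1 to 4 and 181.9, 174.0, 295.0 and 249.3 in GFP+ replicates 1 to 4. Every GFP+ library was well above every GFP- library, and the highest GFP- value, in the shallow replicate 3, rested on 6 reads. Means were 32.8 ± 23.3 and 225.1 ± 57.6 (SD, n = 4), a log2 fold change of 3.09 ± 0.45 (SE) or 8.50-fold. In bulk libraries such as these, fewer cells that express a gene and less RNA per cell cannot be told apart.

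Gucy1a1 had 47.5, 45.2, 65.9 and 40.5 normalised counts in GFP- replicates 1 to 4 and 256.9, 208.4, 265.8 and 459.6 in GFP+ replicates 1 to 4. The GFP- libraries were close together, the GFP+ libraries were all far above them, and replicate 4 was the highest of these. This was 6.42-fold, or 2.68 ± 0.36 (SE) on the log2 scale, between means of 49.8 ± 11.2 and 297.7 ± 111 (SD, n = 4). Scaled to the 8 fibroblast markers, the log2 fold changes were 2.03 for Gucy1b1 and 1.73 for Gucy1a1. Over the fits that each left out 1 library they ran from 2.85 to 3.32 for Gucy1b1 and from 2.39 to 2.82 for Gucy1a1.

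Gucy1a2 (ENSMUSG00000041624, chromosome 9, 3532778 to 3894736, plus strand) encodes alpha2, which can replace alpha1 in the dimer. Its normalised counts were 4.07, 35.1, 98.9 and 64.6 in GFP- and 70.8, 153.1, 69.1 and 179.2 in GFP+ replicates 1 to 4. The groups overlapped, because GFP- replicate 3 lay above GFP+ replicates 1 and 3. That value rested on 9 reads, and the lowest, in GFP- replicate 1, on 3 reads. Means were 50.7 ± 40.6 and 118.1 ± 56.5 (SD, n = 4), which is 1.34 ± 0.70 (SE) on the log2 scale. Scaled to the fibroblast markers, the log2 fold change was 0.33.

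Per length, the subunits were compared with one another within each library, on the TPM scale. In GFP- libraries the means were 2.06 TPM for Gucy1b1, 1.89 TPM for Gucy1a2 and 1.72 TPM for Gucy1a1, and the ranges of all 3 overlapped. In GFP+ libraries they were 11.2 ± 2.51 TPM for Gucy1b1, 8.34 ± 2.89 TPM for Gucy1a1 and 3.66 ± 2.11 TPM for Gucy1a2 (SD, n = 4), and each of the 4 libraries had more Gucy1a1 than Gucy1a2, with no overlap of their ranges, but this order depended on the length used. The alpha1 to beta1 ratio was 1.97, 1.27, 0.564 and 0.723 in GFP- and 0.796, 0.675, 0.508 and 1.04 in GFP+ replicates 1 to 4, and these ratios overlapped between groups. The ratio of Gucy1a2 to Gucy1a1 had a median of 1.19 in GFP- libraries, from 0.0898 to 1.67, and of 0.349 in GFP+ libraries, from 0.273 to 0.770. The alpha1 to beta1 ratio thus lay between 0.508 and 1.97 over all 8 libraries. Some GFP- ratios rested on few reads, with 3 of Gucy1a2 in replicate 1. In GFP- replicate 3 there were 6 reads of Gucy1b1, 6 of Gucy1a1 and 9 of Gucy1a2. With the length of the longest annotated transcript in place of all exons, a choice made after the values were seen, the median ratios of alpha1 to beta1 were 1.21 and 0.893. With that length the ranges of Gucy1a1 (8.05 to 16.5 TPM) and Gucy1a2 (3.23 to 10.1 TPM) overlapped in GFP+ libraries, and GFP+ replicate 2 had more Gucy1a2 (10.14 TPM) than Gucy1a1 (9.47 TPM).

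**Figure D3:**
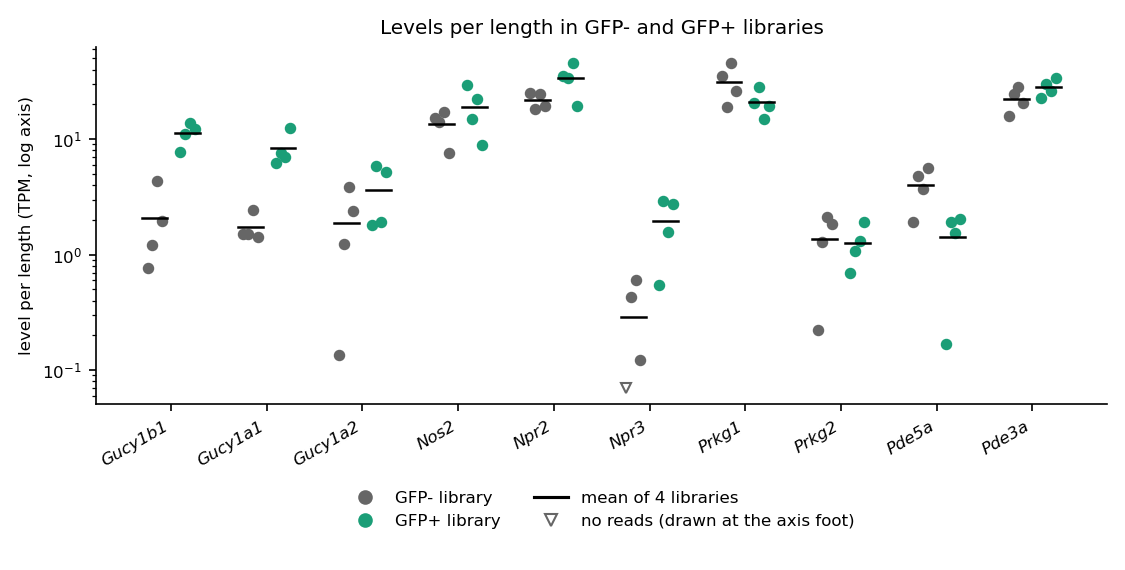
Levels per length (TPM, log axis) of the 10 genes, 1 point per library, with a line at the mean of 4 libraries. Prkg1, Npr2, Pde3a and Nos2 had the highest means in both groups, and the cyclase subunits had means of 1.72 to 2.06 TPM in GFP- and 3.66 to 11.2 TPM in GFP+ libraries. In GFP+ replicate 4 Nos2 (8.82 TPM) lay below Gucy1b1 (12.13 TPM) and Gucy1a1 (12.6 TPM).

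Nos2 (ENSMUSG00000020826, chromosome 11, 78920787 to 78960254, plus strand) encodes the inducible nitric oxide synthase, a source of the gas that soluble guanylate cyclase senses. Its normalised counts were 301.2, 266.6, 296.7 and 138.7 in GFP- and 767.9, 263.2, 533.2 and 203.6 in GFP+ replicates 1 to 4. GFP+ replicates 1 and 3 were above every GFP- library, and GFP+ replicates 2 and 4 were within the GFP- range. The log2 fold change was 0.83 ± 0.43 (SE), between means of 250.8 ± 76.3 and 442.0 ± 260 (SD, n = 4), and it became -0.083 when libraries were scaled to the fibroblast markers. Macrophages also express Nos2. None of the 9 tested macrophage markers was called, but their sum varied widely within each group. The part of macrophages in the Nos2 values was not tested.

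Npr2 (ENSMUSG00000028469, chromosome 4, 43631935 to 43651244, plus strand) is the membrane guanylate cyclase that binds C-type natriuretic peptide. It had 527.7, 364.1, 450.5 and 373.5 normalised counts in GFP- and 980.4, 627.6, 1151 and 478.1 in GFP+ replicates 1 to 4. Only GFP+ replicate 4 fell within the range of the GFP- libraries. Means were 428.9 ± 76.4 and 809.2 ± 310 (SD, n = 4), and the log2 fold change was 0.92 ± 0.30 (SE), close to the median of the fibroblast markers, so that it was -0.022 when libraries were scaled to them.

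Npr3 (ENSMUSG00000022206, chromosome 15, 11839896 to 11907287, minus strand) is the natriuretic peptide receptor without a cyclase domain, known for clearing the peptides. Its normalised counts were 0, 17.2, 22.0 and 4.73 in GFP- and 30.6, 109.2, 79.9 and 133.5 in GFP+ replicates 1 to 4. No GFP+ library reached down to the GFP- range, but the GFP- values rested on 0, 24, 2 and 9 reads. The absence of reads in GFP- replicate 1, among 7868787 counts, allows up to 4.07 normalised counts at a limit of 3 reads, for counting error only. Means were 10.98 ± 10.3 and 88.3 ± 44.3 (SD, n = 4), which is 3.28 ± 0.84 (SE) on the log2 scale, and the values under the 8 fits that left out 1 library ran from 2.84 to 4.19. Even in GFP+ libraries Npr3 was low per length, at 1.94 ± 1.11 TPM (SD, n = 4) against 33.5 ± 10.6 TPM for Npr2.

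Prkg1 (ENSMUSG00000052920, chromosome 19, 30564489 to 31765033, minus strand) encodes cGMP-dependent protein kinase type I, the main effector of cGMP in contractile cells. It had 1735, 878.6, 1923 and 1169 normalised counts in GFP- and 1328, 1219, 892.7 and 1092 in GFP+ replicates 1 to 4. All GFP+ libraries lay within the GFP- range. The log2 fold change was -0.32 ± 0.27 (SE), from means of 1426 ± 486 and 1133 ± 187 (SD, n = 4), and -1.22 against the fibroblast markers. The kinase was thus among the most abundant of the 10 genes in both groups, at 31.5 ± 11.5 TPM and 20.8 ± 5.52 TPM (SD, n = 4).

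Prkg2 (ENSMUSG00000029334, chromosome 5, 98929773 to 99037351, minus strand) encodes the type II kinase, which is anchored to membranes. Its 5.43, 29.4, 44.0 and 40.5 normalised counts in GFP- and 22.2, 23.0, 38.4 and 54.3 in GFP+ replicates 1 to 4 overlapped. The log2 fold change of 0.29 ± 0.69 (SE) had no stable sign, being -0.76 against the fibroblast markers, -0.083 without GFP- replicate 1 and -0.030 without GFP+ replicate 4.

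Pde5a (ENSMUSG00000053965, chromosome 3, 122728947 to 122859374, plus strand) encodes the cGMP-specific phosphodiesterase that sildenafil inhibits. It had 85.5, 199.9, 142.8 and 225.9 normalised counts in GFP- and 9.72, 75.3, 82.2 and 104.3 in GFP+ replicates 1 to 4. The groups overlapped, with 3 GFP- libraries above every GFP+ library and GFP- replicate 1 below GFP+ replicate 4. Means were 163.5 ± 62.5 and 67.9 ± 40.7 (SD, n = 4), a log2 fold change of -1.27 ± 0.59 (SE), 2.41-fold lower in GFP+ libraries and opposite in sign to the cyclase subunits. The log2 fold change was -1.53 with the replicate number as a block and -2.25 against the fibroblast markers.

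Pde3a (ENSMUSG00000041741, chromosome 6, 141249269 to 141507448, plus strand) encodes a phosphodiesterase that cGMP inhibits and that mainly degrades cAMP. Its normalised counts were 911.7, 1320, 1395 and 1069 in GFP- and 1729, 1522, 1804 and 2270 in GFP+ replicates 1 to 4. The groups did not overlap, but the step between the nearest libraries was small. Means were 1174 ± 224 and 1831 ± 316 (SD, n = 4), a 1.57-fold difference, 0.65 ± 0.20 (SE) on the log2 scale, which was smaller than the median of the fibroblast markers and became -0.29 when libraries were scaled to them.

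Ordered by mean level per length, the 4 most abundant genes were the same in both groups. In GFP- libraries the order of means was Prkg1 at 31.5 TPM, Pde3a at 22.2 TPM, Npr2 at 21.9 TPM, Nos2 at 13.6 TPM, Pde5a at 4.01 TPM, then the 3 cyclase subunits, Prkg2 at 1.36 TPM and Npr3 at 0.289 TPM. Only Npr2 over Nos2 and Nos2 over Pde5a were neighbours whose ranges did not overlap. In GFP+ libraries it was Npr2 at 33.5 TPM, Pde3a at 28.3 TPM, Prkg1 at 20.8 TPM, Nos2 at 18.9 TPM, Gucy1b1 at 11.2 TPM and Gucy1a1 at 8.34 TPM, and then Gucy1a2, Npr3, Pde5a at 1.42 TPM and Prkg2 at 1.26 TPM. Gucy1a1 over Gucy1a2 was the only pair of neighbours there without overlap, and these overlapped with the length of the longest transcript. Pde5a thus lay above each cyclase subunit in the order of GFP- means and below each of them in GFP+ libraries.

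A list of 69 other genes of nitric oxide and cGMP signalling, drawn up from general knowledge but with earlier results of these data known, was then examined. DESeq2 gave 46 of them an adjusted p, of which 3 were higher (Nos1, Mme and Kcnma1), 3 were lower (Slc7a1, Gucy2f and Pde11a) and 40 were not called. The shares of all genes tested that were called higher and lower, 4.66% and 4.76%, stand beside 3 of 46 in each direction, and nothing is called particular to the list. The remaining 23 had too few reads for an adjusted p, 4 of them with no read at all. The median log2 fold change of the 46 was -0.10, against -0.01 over all genes tested.

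Among 19 genes listed under nitric oxide supply and its control, 17 were tested, 1 rose and 1 fell. Nos1, the neuronal synthase, had 80.0, 7.88, 0 and 12.6 normalised counts in GFP- and 329.1, 141.0, 242.8 and 29.2 in GFP+ replicates 1 to 4. The 0 in the shallow GFP- replicate 3 allows up to 33.0. The groups overlapped, with GFP- replicate 1 above GFP+ replicate 4, and the difference of 2.77 ± 0.85 (SE) on the log2 scale passed DESeq2's test (DESeq2 adjusted p = 0.0175) but was not called by edgeR (edgeR adjusted p = 0.113). Its call was also lost without GFP- replicate 2 (DESeq2 adjusted p = 0.0707), GFP- replicate 4 (0.0813), GFP+ replicate 1 (0.0832) or GFP+ replicate 3 (0.0858). Without GFP- replicate 1, which held the highest GFP- value, the log2 fold change was 4.35 (DESeq2 adjusted p = 3.06e-06). Slc7a1, the main carrier of arginine into cells, fell from 1401 ± 156 to 804.9 ± 160 normalised counts (SD, n = 4) with no overlap (log2 fold change -0.80 ± 0.20 SE, DESeq2 adjusted p = 0.00132, edgeR adjusted p = 0.0230). Of those not called, Ddah1, which degrades an inhibitor of nitric oxide synthases, had 224.8 ± 91.8 and 432.7 ± 113 normalised counts (SD, n = 4; DESeq2 adjusted p = 0.0613). Gch1, the entry enzyme for the cofactor of the synthases, had 337.0 ± 227 and 335.8 ± 55.6 (SD, n = 4; DESeq2 adjusted p = 0.977). Nos3, the endothelial synthase, had means of 0.752 and 2.75 normalised counts and no adjusted p.

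Of 7 other guanylate cyclases 3 were tested, and Gucy2f was the gene called. Npr1, the receptor of atrial and brain natriuretic peptides, had 1242 ± 98.2 and 1498 ± 89.3 normalised counts (SD, n = 4), with every GFP+ library above every GFP- library, and was not called (log2 fold change 0.29 ± 0.13 SE, DESeq2 adjusted p = 0.181). Gucy2f, a cyclase of the retina, fell from 26.7 ± 9.65 to 3.16 ± 2.18 normalised counts (SD, n = 4) without overlap (log2 fold change -3.00 ± 0.83 SE, DESeq2 adjusted p = 0.00623, edgeR adjusted p = 0.126). These values rested on few reads, with 13, 38, 2 and 76 in GFP- and 0, 9, 5 and 15 in GFP+ replicates 1 to 4. Without GFP- replicate 2 or GFP- replicate 4 the DESeq2 adjusted p of Gucy2f was 0.0662 or 0.142.

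Among 10 genes of the peptide ligands and their processing 5 were tested, and Mme was the gene called. Mme, known as neprilysin, a protease on the cell surface that degrades natriuretic peptides, rose from 248.7 ± 55.0 to 750.0 ± 180 normalised counts (SD, n = 4), with no overlap (log2 fold change 1.60 ± 0.27 SE, DESeq2 adjusted p = 2.33e-07, edgeR adjusted p = 0.00209). Scaled to the fibroblast markers this was 0.65 and no longer called (DESeq2 adjusted p = 0.0832). The ligands themselves had few reads, with none for Nppa, means of 0.525 and 1.99 normalised counts for Nppc, which encodes the ligand of Npr2, and means of 11.5 and 1.08 for Nppb (DESeq2 adjusted p = 0.202), with 30.1 in GFP- replicate 2.

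The 16 other phosphodiesterases and exporters of cGMP included 11 tested, of which Pde11a was called. Pde11a, which hydrolyses both cGMP and cAMP, had 640.3, 702.3, 549.4 and 1060 normalised counts in GFP- and 305.5, 321.7, 244.3 and 291.9 in GFP+ replicates 1 to 4. GFP+ libraries were close together and all below the GFP- libraries. It fell from 738.0 ± 224 to 290.9 ± 33.4 (SD, n = 4; log2 fold change -1.36 ± 0.25 SE, DESeq2 adjusted p = 2.29e-06, edgeR adjusted p = 0.00433). The melanocyte markers were lower in the same libraries, and their part in the values of Pde11a, Slc7a1 and Gucy2f was not tested. Pde10a, at 699.6 ± 56.1 and 584.9 ± 88.4 normalised counts (SD, n = 4; DESeq2 adjusted p = 0.461), and the exporter Abcc4, at 592.4 ± 140 and 761.1 ± 152 (SD, n = 4; DESeq2 adjusted p = 0.307), were not called, and Pde2a had no read.

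Of 17 kinase substrates and cGMP-gated channels 10 were tested, and Kcnma1 was the gene called. Kcnma1, the large-conductance potassium channel that the kinase activates, had 8.14, 12.9, 44.0 and 44.7 normalised counts in GFP- and 69.4, 93.3, 169.8 and 74.5 in GFP+ replicates 1 to 4. The groups did not overlap (log2 fold change 2.01 ± 0.62 SE, DESeq2 adjusted p = 0.0187, edgeR adjusted p = 0.129). The call was lost without GFP- replicate 1 (DESeq2 adjusted p = 0.0558), GFP- replicate 2 (0.104), GFP+ replicate 2 (0.0584) or GFP+ replicate 3 (0.163). It was 2.69 on the log2 scale without GFP- replicate 4 (DESeq2 adjusted p = 0.0038), and 0.90 against the fibroblast markers (DESeq2 adjusted p = 0.292). Substrates used in many cell types were not called, among them Vasp with 596.9 ± 111 and 406.8 ± 99.3 (SD, n = 4; DESeq2 adjusted p = 0.134) and Itpr1, a calcium channel of the endoplasmic reticulum, with 1318 ± 361 and 886.3 ± 301 normalised counts (SD, n = 4; DESeq2 adjusted p = 0.231). The smooth muscle substrate Pln had no read.

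**Figure D4:**
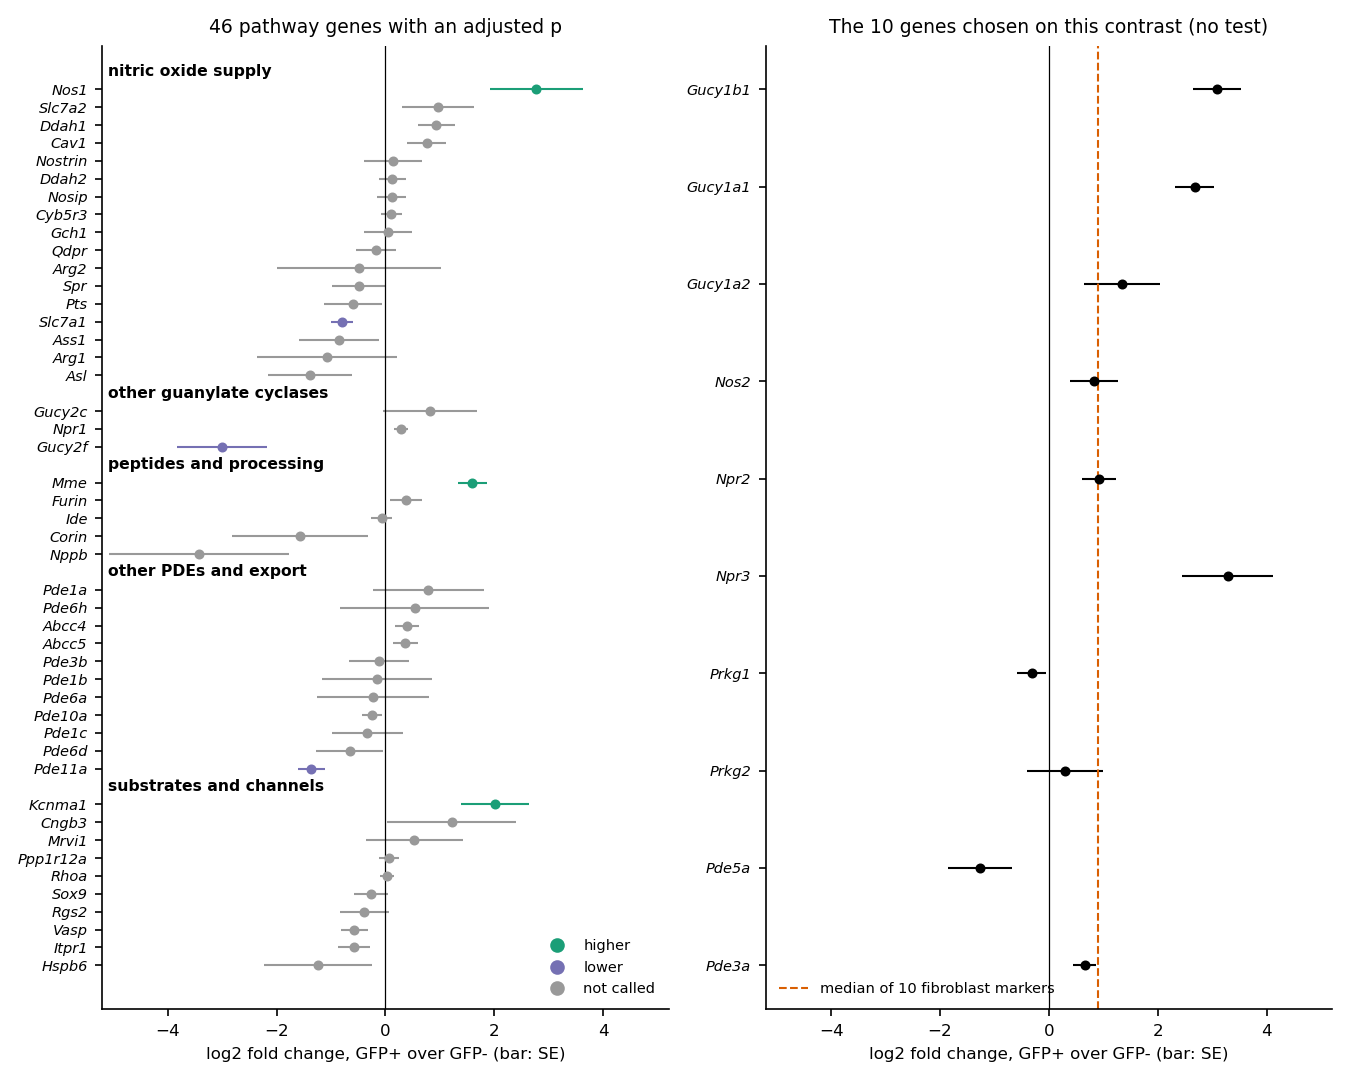
Log2 fold changes of GFP+ over GFP- libraries with their SE, for the 46 tested genes of the pathway list by role (left; green higher, purple lower, grey not called) and for the 10 genes (right), with a dashed line at the fibroblast marker median of 0.91. Gucy1b1, Gucy1a1, Gucy1a2 and Npr3 lay beyond that line, Npr2 and Nos2 near it, and Pde3a below it, so that these last 3 turned negative when libraries were scaled to fibroblast markers.

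The genes whose values followed the subunits most closely over the 8 libraries were ranked by Pearson's r of log2(normalised count + 1), among genes with a mean of at least 100. For Gucy1b1 they were Lama2 (r = 0.991), Svep1 (0.989), Prg4 (0.989), Cp (0.987) and Bmper (0.986), and for Gucy1a1 they were Cyp1b1 (0.992), Igf1 (0.989), Lpl (0.989), Psap (0.9845) and C1s1 (0.984). These r values describe 8 libraries that share the group difference, and every gene so named had a higher mean in GFP+ libraries. The r between Gucy1b1 and Gucy1a1 was 0.938. With Gucy1b1, r was 0.896 for Pde3a, 0.880 for Npr3, 0.760 for Gucy1a2, 0.678 for Npr2, 0.415 for Nos2, -0.29 for Prkg1 and -0.47 for Pde5a. Lama2 is a laminin chain and Svep1, Prg4 and Bmper encode secreted proteins of the matrix, while Igf1 and C1s1 encode secreted factors and Lpl and Cyp1b1 enzymes of lipid and xenobiotic metabolism.

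Protein-coding genes within 500 kb of the Gucy1b1 and Gucy1a1 pair were read as local neighbours, a window chosen after values were seen. DESeq2 and edgeR called 0 of 5, and 1 (Map9) had an unadjusted DESeq2 p under 0.05. Ctso, whose start lies at -142.1 kb from that of Gucy1b1, had 409.4 and 494.1 normalised counts on average (log2 fold change 0.27 ± 0.26 SE; DESeq2 adjusted p = 0.625). Map9, whose start lies at 283.4 kb, on the side of Gucy1a1, had 38.0 and 111.7 (1.57 ± 0.65 SE; DESeq2 adjusted p = 0.115). Tdo2 and Npy2r had low counts, with log2 fold changes of 1.04 ± 1.01 and 2.30 ± 1.63 (SE; DESeq2 adjusted p = 0.622 and 0.456), and Asic5 had no adjusted p. The SE of Npy2r was too wide to place it against the subunits.

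**Figure D5:**
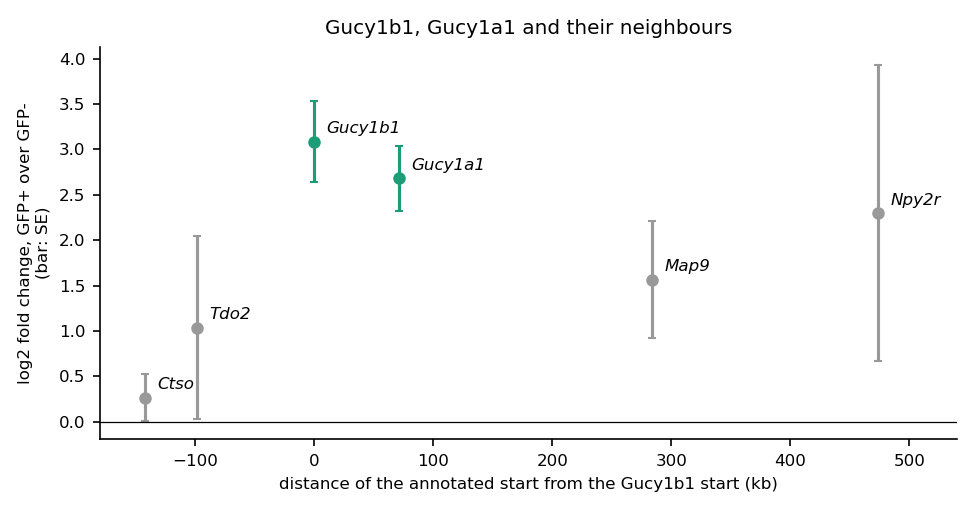
Log2 fold change (GFP+ over GFP-, bars are SE) against the distance of each gene's annotated start from that of Gucy1b1 in kb, with Gucy1b1 and Gucy1a1 in green and 4 neighbours in grey. The subunits lay at 3.09 and 2.68, Ctso at 0.27 and Map9 at 1.57, and Npy2r had the widest SE.

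Overlap of exons with other genes was small. The strand was used in counting, and the overlaps on the opposite strand spanned 266 bases of Npr2, 321 of Npr3, 55 of Pde5a and 741 of Pde3a, with between 1 and 99 reads in all on the partner genes. No member of the set shared more than 1 base with a gene on its own strand.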

How the data were processed

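Stranded total RNA libraries for small inputs (SMARTer Pico) were sequenced on a NextSeq 500/550 from 4 GFP- and 4 GFP+ samples, with group and replicate number taken from the sample titles. The authors trimmed adapters with cutadapt 3.4, mapped reads to GRCm38 with STAR 2.7.3a and assigned them by strand to Ensembl genes with featureCounts 2.0.1, and they deposited a whole-number raw count per gene and library. Reads shared by near-identical genes can be lost in such counting, and reads were not collapsed by molecular identifiers. For every gene it also holds the score that the authors deposited as a normalised count (raw counts over DESeq2 size factors, rounded), together with group means, fold changes, p-values and dispersion values of the authors' own comparison. The latter were not used, and the number of per-sample columns left out was 0.

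Raw counts of the 29043 genes with a read were fitted with DESeq2 1.42.0 in R 4.3.3, with the group as the only term and Wald tests in both directions, adjusted by the Benjamini-Hochberg method over all genes with an adjusted p (15283), and called at an adjusted p under 0.05. The filter on Cook's distance left 317 genes without a p. The numbers of genes called, of members called and of pathway genes called were recomputed with edgeR 4.0.16 (quasi-likelihood test), limma 3.58.1 (voom), other size factors and filters, the replicate number as a block, each library left out and a threshold of 0.01. Scaling to 8 fibroblast markers and the longest-transcript length were added after the data were seen. TPM were computed from raw counts and the union of exons in GENCODE M21 on GRCm38, for 53620 of 53801 genes. Promoters were RefSeq windows on GRCm38.p6. Code was tested on simulated data.

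The 10 genes and all lists, including the pathway list and the markers of 10 cell types, were chosen with earlier results of these data known. Named were every member, every called gene of the pathway list with others as examples by role, the 5 genes most like each of Gucy1b1 and Gucy1a1, and the genes used in the sort. The depth of GFP- replicate 3 (883144 counts) limits low genes there, with a limit of 33.0 normalised counts for 0 reads. No batch or date was given in the labels. The result of 1 gene of the pericyte list is not reported here. Proteins, and promoters of Prkg2, Pde3a and Nos2, were not used here.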

Additional observations from a re-analysis of the deposited data

Results flagged for a closer look

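Among 64 groups of 4 libraries examined, for the counts of the members, the called pathway genes and the genes of the sort, the marker sums and the total counts, 4 held a library far from the other 3, where chance gives about 1 in 20. Nos1 in GFP- replicate 1 had 80.0 normalised counts, against 0 to 12.6 in the other GFP- libraries. Pecam1, a gene of the CD31 gate, had 516.4 in GFP- replicate 3, against 81.0 to 122.9 in the other GFP- libraries. The summed fibroblast markers were 21390 TPM in GFP+ replicate 2, against 16600 to 17250 TPM in the other GFP+ libraries. The summed smooth muscle markers were 51.67 TPM in GFP+ replicate 1, against 64.47 to 66.62 TPM in the other GFP+ libraries. None of the 10 genes had a library that stood apart in this way in either group.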

How the results depend on the processing

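The number of genes called, 1439 in all, was 732 with the edgeR quasi-likelihood test, 844 at an adjusted p under 0.01 and 7322 when scaled to 8 fibroblast markers, and it ran from 969 to 1837 over the fits that left out 1 library. The count of 5 called members was 2 with edgeR, 3 at an adjusted p under 0.01 and 3 to 5 with 1 library left out, at its lowest without GFP- replicate 4 or GFP+ replicate 3. For the pathway list, 6 calls became 3 with edgeR, 3 with limma, 21 on the fibroblast scale and 3 to 7 with 1 library left out, at its lowest without GFP- replicate 2. Scaling to fibroblast markers turned the log2 fold changes of Nos2 (-0.083), Npr2 (-0.022), Pde3a (-0.29) and Prkg2 (-0.76) negative, and that of Prkg2 ran from -0.083 to 0.57 with 1 library left out, negative without GFP- replicate 1 and without GFP+ replicate 4 (-0.030). Slc7a1 and Pde11a kept their call and direction in all 17 other fits. Replicate numbers were not treated as pairs, since the labels do not say whether same-numbered libraries came from the same tumors. Same-numbered libraries deviated together with r of 0.05, -0.16, -0.12 and 0.26 over 8812 genes, and only number 4 correlated best with its own. With 4 libraries per group, 1 of them shallow, these r values cannot show whether tumors were shared. With the replicate block, 1492 genes and 6 members were called, the added one being Pde5a, and 9 pathway genes. The shallow GFP- replicate 3 limits genes with few reads there, Npr3, Prkg2 and the cyclase subunits among them.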
